A study of Amphimedon queenslandica with 144 samples.

Results

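The 200 best-measured features with identifiers beginning TCONS were followed through the larval life and settlement of the demosponge Amphimedon queenslandica. The count table held 47411 features. Of these, 44016 carried Aqu2.1 gene model identifiers and 3395, or 7.16%, carried TCONS identifiers, which the labels do not describe. Counts were divided by the column sum and scaled to CPM, counts per 1000000, and the 200 TCONS features of highest mean CPM over all 144 animals were taken. The choice therefore used level, and level is given below as a description only.

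Each library came from 1 whole animal. Larvae that had been given no cue were taken 0.5 h after emergence from the mother (n = 9). The other larvae were placed singly in wells of filtered seawater at 1.5, 3, 5 or 8 h and taken 2 h later, so that their ages were 3.5, 5, 7 and 10 h. A well held seawater alone or, with it, a fragment of a coralline alga, either the articulated Amphiroa fragilissima or the crustose Mesophyllum sp., and 9 swimming larvae were taken for each cue and age. Settled post-larvae, which had attached and stayed attached when the plate was swirled, came from both algae at 7 and 10 h. There were 6 on A. fragilissima at 7 h and 7 in each of the other settled groups. Swimming and settled animals of an alga and age had received the same treatment and were sorted by what they had done. No label says that animals shared a mother, so each animal was counted as 1 replicate. The labels name no genetic change and no strain.

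A sponge larva swims for some hours after release, becomes able to respond to surface cues such as coralline algae, then attaches and begins metamorphosis into the juvenile body. The prefix TCONS is the usual form in which transcript assemblers of the Cufflinks family number the transcripts they merge from reads. Such a transcript can belong to a protein-coding gene that a set of gene models missed, to an unannotated end of a known gene, or to a non-coding RNA. The files do not say which applies to any TCONS feature, and none of the identifiers in the table matched the reference table of gene names, so no sequence, position or role is given and stage markers could not be checked. CEL-Seq2 tags the 3′ end of polyadenylated RNA, so a count is a tagged molecule and is not scaled by transcript length.

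An animal gave 541737 to 4692279 counts in all (median 2011368.5), so that 1 count was worth 0.213 to 1.85 CPM. The labels name 3 libraries, T, K and C, of 48 animals apiece, which are called batches here. The batches were uneven, since 25 of the 27 settled animals were in C and none was in K. The 0.5 h group, the seawater groups of 3.5, 5 and 10 h and the swimming larvae with A. fragilissima of 7 h had no animal in C. All settled animals on A. fragilissima at 7 h were in C, so these groups of 7 h alone cannot tell settlement from batch. The fits reported here carried a term for batch unless stated. These are whole animals, in which fewer cells of a type and less RNA per cell cannot be told apart.

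The 200 features were a small but steady part of the RNA. Together they took 85.6% of all counts on TCONS features, and per animal they took 0.444% to 0.750% of all counts, with a median of 0.548%. Mean CPM ran from 3.72 to 712 with a median of 9.96. Levels were uneven: 11 of the 200 averaged 100 CPM or more, 100 averaged under 10 CPM, and the 10 highest held 42.1% of the summed CPM. At the threshold, TCONS_00001031, TCONS_00004966 and TCONS_00002292 averaged 3.76, 3.72 and 3.72 CPM just inside. TCONS_00000926, TCONS_00000212 and TCONS_00001859 averaged 3.72, 3.72 and 3.69 CPM just outside. All 200 passed the low-count filter, which 424 TCONS features passed in all. Ranking by median in place of mean CPM kept 175 of the 200.

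The highest of all, TCONS_00001787, averaged 712 CPM and was exceeded by 202 Aqu2.1 features. TCONS_00003272 followed at 506 CPM, TCONS_00004304 at 207 CPM, TCONS_00003567 at 175 CPM and TCONS_00002427 at 157 CPM. The next 5 were TCONS_00001681 and TCONS_00005054 at 129 CPM each, TCONS_00002703 at 124 CPM, TCONS_00003075 at 114 CPM and TCONS_00005036 at 112 CPM. All 10 were counted in all 144 animals. None reached the highest count in the table, 8192, and 1 value of 1 feature, a count of 4758 for TCONS_00001787, passed 4096, which is 50% of it.

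Beside Aqu2.1 gene models of the same level, the TCONS features varied more from animal to animal. For each of the 200, the 5 Aqu2.1 features just above and the 5 just below it in mean CPM were taken, which gave 1742 different features. The coefficient of variation of CPM over the 144 animals had a median of 0.843 for the TCONS features (quartiles 0.575 and 1.18) and 0.621 for these gene models (quartiles 0.432 and 0.880). A count was present in all animals for 73 TCONS features, or 36.5%, and for 884 of the gene models, or 50.7%. At the other end, 10 TCONS features, or 5%, and 22 gene models, or 1.26%, had a count in under 50% of the animals. These are descriptions of 2 sets chosen by level, and no test was made of the difference. Differences between groups and batches are part of this spread, and spread within groups was not compared.

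**Figure D1:**
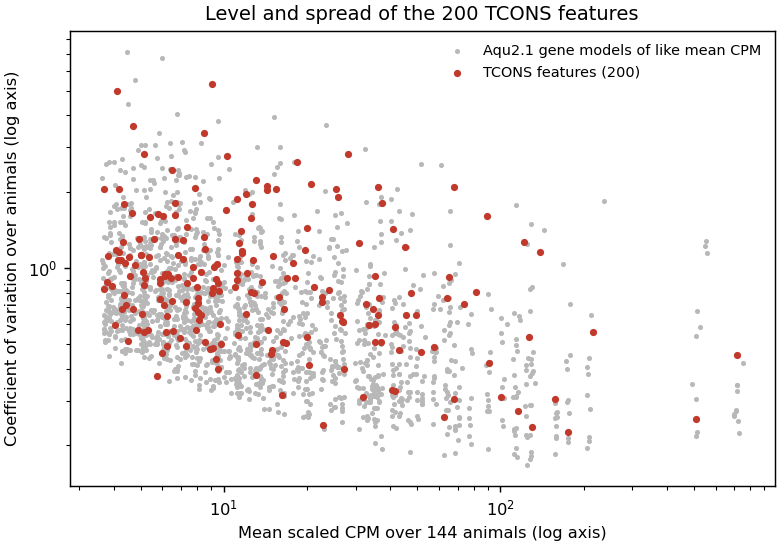
Each point is 1 feature, with its mean scaled CPM over 144 animals on the horizontal log axis and its coefficient of variation over animals on the vertical log axis. TCONS features (red) lie over the whole range of the Aqu2.1 gene models of like level (grey), with a higher median, 0.843 against 0.621 in plain CPM.

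The steadiest and the most variable members lie far apart. TCONS_00003075 had the smallest coefficient of variation, 0.186, followed by TCONS_00005054 at 0.202, TCONS_00003567 at 0.226, TCONS_00003272 at 0.239 and TCONS_00002751 at 0.279. The largest belonged to TCONS_00004997 at 5.30, TCONS_00000812 at 4.92 and TCONS_00005023 at 3.64. TCONS_00000812 had a count in 63 animals, of which 56 were below 10 CPM and 7 at or above it, up to 198 scaled CPM.

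Some members had no count in most animals. TCONS_00003257 had no count in 101 of 144 animals, TCONS_00004997 in 100, TCONS_00000881 in 94, TCONS_00005055 in 90 and TCONS_00001353 in 87. Where TCONS_00005055 was counted, in 54 animals, its median was 31.8 scaled CPM, and where TCONS_00003257 was counted, in 43, it was 20.2 scaled CPM. A single count was worth at most 1.85 CPM, so both medians stand for many counts in any library. Of these animals 18 of the 54 and 17 of the 43 lay between 0 and 10 CPM. For TCONS_00000881, 36 of the 50 animals with a count did. TCONS_00001353 and TCONS_00004997 were of another kind: where counted, their medians were 1.09 and 2.15 scaled CPM, near the worth of 1 count in the shallowest library, and most of their high values lay in settled animals.

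Across the 6 comparisons of age, cue and settlement, 88 of the 200 features were called in at least 1 comparison, 15 of them in 2 or more, and 112 in none. The 88 are 44%, beside 42.5% of all features tested and 38.8% of the gene models of like level, and of all features 9.65% were called in 2 or more. A feature was called when its Benjamini-Hochberg adjusted p in edgeR's quasi-likelihood test, adjusted over all 14950 features tested, was below 0.05. Values below are CPM on library sizes adjusted by edgeR's trimmed mean of M-values (TMM), given as mean ± SD, and a log2 change is followed by its standard error.

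**Figure D2:**
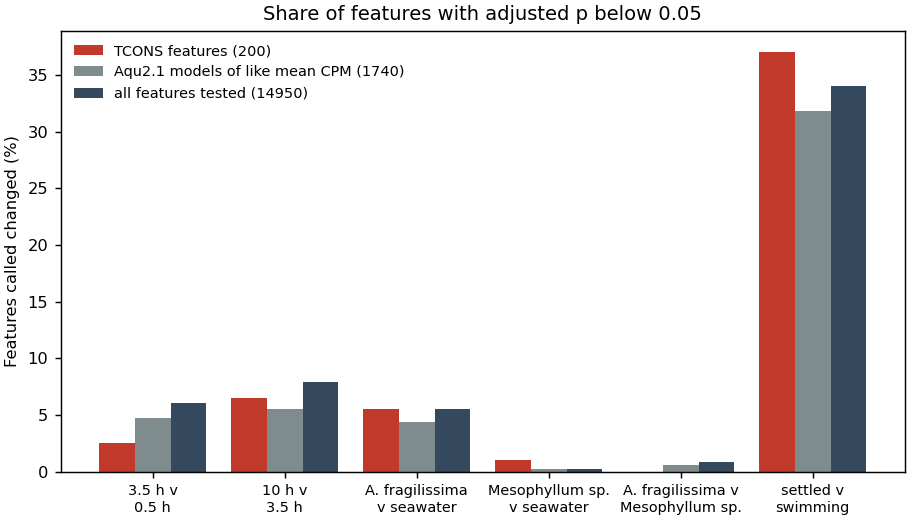
Bars give the percent of features called in each of the 6 comparisons, for the 200 TCONS features, the 1740 tested Aqu2.1 gene models of like mean CPM, and all 14950 features tested. Settlement stands above all other comparisons in all 3 sets, with 37%, 31.8% and 34% called.

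Settlement was the comparison in which most of them moved. Settled animals were compared with swimming larvae that had been given the same alga at the same age, over both algae and both ages. Of the 200, 46 were higher and 28 lower in settled animals, which is 37%, beside 34% of all features tested and 31.8% of the gene models of like level. The share called is thus near the background. By direction, 23% of the TCONS features rose, beside 16.9% of all features and 14.3% of the gene models of like level, and 14% fell, beside 17.1% and 17.5%. Rises of at least 4-fold were called for 18 of them, beside 2.93% of all features tested, and a fall of at least 4-fold for 1, beside 0.515%. The choice by mean CPM over all animals can take in features through high settled animals, so nothing is read from the 18: among the 200 of highest median CPM such rises were 12. The median log2 change over the 200 was -0.03, and over all features tested it was -0.10.

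Called rises ran from 0.22 to 7.02 on the log2 scale with a median of 1.64, and called falls from -2.07 to -0.25 with a median of -0.92. Of the 46 rises, 38 had a higher mean in settled animals in each of the 4 pairs of alga and age, and 21 of the 28 falls had a lower mean in each. These means carry no batch term. In the pair on A. fragilissima at 7 h all settled and no swimming animals were in C, so that pair cannot tell settlement from batch. The settled and the swimming animals overlapped in all 74. Neither the pairs nor the overlap was counted over all features, so neither is read as a trait of the members. Within batch C alone, with 19 settled and 14 swimming animals in 3 of the pairs, 32 rose and 11 fell, and 41 of these 43 were among the 74. Of all features tested, C alone called 16%. Batch T, with 2 settled and 3 swimming animals, called none of the 200 and 0.00669% of all features.

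TCONS_00003335 had the smallest adjusted p of the 74. Swimming larvae had 2.53 to 32.2 CPM with a median of 6.48 (7.20 ± 5.01, SD, n = 36), and settled animals had 6.56 to 296 CPM with a median of 199 (159 ± 107, SD, n = 27). In 20 of 27 settled animals it was above every swimming larva, and the other settled animals lay among the larvae. The log2 change was 4.40 ± 0.25 (edgeR adjusted p = 3.63e-33), and within batch C it was 4.16.

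TCONS_00004348 behaved likewise from a higher base. Swimming larvae had 4.50 to 34.3 CPM with a median of 13.6 (15.5 ± 7.27, SD, n = 36). Settled animals had 12.6 to 657 CPM with a median of 330 (289 ± 218, SD, n = 27). The change on the log2 scale was 4.02 ± 0.25 (edgeR adjusted p = 6.50e-30), and 22 of 27 settled animals lay above all swimming larvae. Settled means were 302 ± 225 CPM (SD, n = 6) on A. fragilissima at 7 h and 360 ± 164 CPM (SD, n = 7) at 10 h. On Mesophyllum sp. they were 128 ± 168 CPM (SD, n = 7) at 7 h and 370 ± 254 CPM (SD, n = 7) at 10 h, and the ranges of these groups overlapped.

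**Figure D3:**
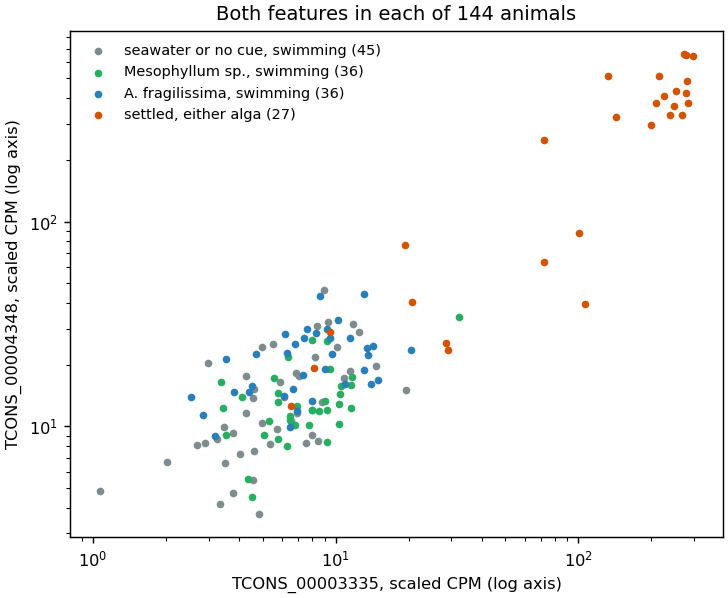
Each point is 1 of 144 animals, with scaled CPM of TCONS_00003335 and TCONS_00004348 on log axes and colour for cue and state. In 20 of 27 settled animals (orange) both features were above their highest swimming larva on the same algae and ages, in 5 neither was and in 2 only 1 was.

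The largest rise among features counted in at least 50% of the settled animals was that of TCONS_00001353. It had a count in 12 of 36 swimming larvae, with a highest value of 13.6 CPM (0.614 ± 2.25, SD), and in 24 of 27 settled animals, with a median of 18.1 and a highest value of 173 CPM (43.4 ± 54.9, SD). The log2 change was 6.20 ± 0.66 (edgeR adjusted p = 1.27e-14). Its swimming mean lay below 3.72 CPM, the lowest mean of the 200. The choice by mean CPM can thus have taken it in through its settled animals, so the size of its rise is a description only. Settled animals were spread over the whole range, with 14 of 27 above the highest larva. In the settled animals on Mesophyllum sp. at 7 h, 1 animal had 173 CPM and the next 23.3 CPM, beside a group median of 2.02 CPM.

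Its neighbour in number, TCONS_00001352, rose too. It had a median of 6.20 CPM in swimming larvae (6.93 ± 5.19, SD, n = 36) and of 32.2 CPM in settled animals (52.0 ± 52.7, SD, n = 27), with a highest value of 232 CPM. Its log2 change was 2.91 ± 0.35 (edgeR adjusted p = 3.33e-12). Whether the numbers mark neighbouring transcripts is not given.

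TCONS_00000872 was at 2.30 CPM in the median swimming larva, with 1 larva at 71.1 CPM (5.35 ± 11.7, SD, n = 36). In settled animals it ran from 5.26 to 165 CPM with a median of 72.6 (67.4 ± 42.8, SD, n = 27). The rise on the log2 scale was 3.58 ± 0.36 (edgeR adjusted p = 4.99e-16). The bulk of the 2 groups lay apart, and 15 settled animals passed the highest larva.

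TCONS_00003141 rose in some settled animals and not in others. Swimming larvae had 2.52 to 16.9 CPM (7.38 ± 3.29, SD, n = 36), and the settled median was 14.2 CPM with a highest value of 374 CPM (65.9 ± 99.8, SD, n = 27). Its log2 change was 3.25 ± 0.31 (edgeR adjusted p = 2.19e-17), and 2.17 within batch C. The mean of the settled animals therefore stands for a wide scatter, and 13 of the 27 lay above all larvae.

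Lower features rose by a like factor. In each feature of this paragraph the swimming larvae averaged under 3.72 CPM, the lowest mean of the 200. The choice by mean CPM can thus have taken them in through settled animals, so the sizes of their rises are descriptions only. TCONS_00005017 rose from 1.52 ± 1.63 (SD, n = 36) to 13.3 ± 14.3 CPM (SD, n = 27), by 3.08 ± 0.44 (edgeR adjusted p = 1.91e-09). TCONS_00001901 rose from 2.59 ± 2.30 (SD, n = 36) to 16.3 ± 18.2 CPM (SD, n = 27), by 2.88 ± 0.40 (edgeR adjusted p = 1.40e-09). In both, the SD among settled animals exceeded the mean. TCONS_00004997 had the largest fitted rise, 7.02 ± 0.98 (edgeR adjusted p = 1.21e-09), and had counts in 9 of 36 swimming and 13 of 27 settled animals. Its median was 0 in both groups, and 1 settled animal had 449 CPM, so its fold rests on a minority of animals.

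Among the 10 most abundant members, 6 were called at settlement, all of them higher, beside 34% of all features called and 16.9% called higher. The ranking by mean CPM used the settled animals too, so it can favour features that are high in them, and nothing is read from the 6. TCONS_00001681 had 21.3 to 295 CPM in swimming larvae (72.5 ± 48.2, SD, n = 36) and 105 to 940 CPM in settled animals (407 ± 208, SD, n = 27), a log2 change of 2.67 ± 0.21 (edgeR adjusted p = 1.02e-22). TCONS_00005036 had 28.6 to 136 CPM in swimming larvae (74.1 ± 25.6, SD, n = 36) and 39.9 to 1024 CPM in settled animals (337 ± 262, SD, n = 27), a log2 change of 2.25 ± 0.20 (edgeR adjusted p = 2.73e-19). TCONS_00004304 had 94.7 to 236 CPM in swimming larvae (152 ± 38, SD, n = 36) and 107 to 756 CPM in settled animals (372 ± 202, SD, n = 27), a log2 change of 1.48 ± 0.12 (edgeR adjusted p = 3.58e-22). In these 3, respectively 17, 20 and 15 settled animals lay above every larva. The other 3 moved less: TCONS_00002703 by 0.62 ± 0.20, TCONS_00003075 by 0.36 ± 0.08 and TCONS_00005054 by 0.24 ± 0.09 on the log2 scale.

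The 4 that were not called stayed high in both states. TCONS_00001787 averaged 675 CPM in settled and 661 CPM in swimming animals (log2 -0.13 ± 0.16, edgeR adjusted p = 0.562), and TCONS_00003272 averaged 467 and 437 CPM (0.03 ± 0.09, edgeR adjusted p = 0.819). TCONS_00003567 averaged 199 and 174 CPM (-0.02 ± 0.07, edgeR adjusted p = 0.861), and TCONS_00002427 averaged 143 and 170 CPM (-0.21 ± 0.13, edgeR adjusted p = 0.198). That they missed the threshold does not show that they were equal.

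**Figure D4:**
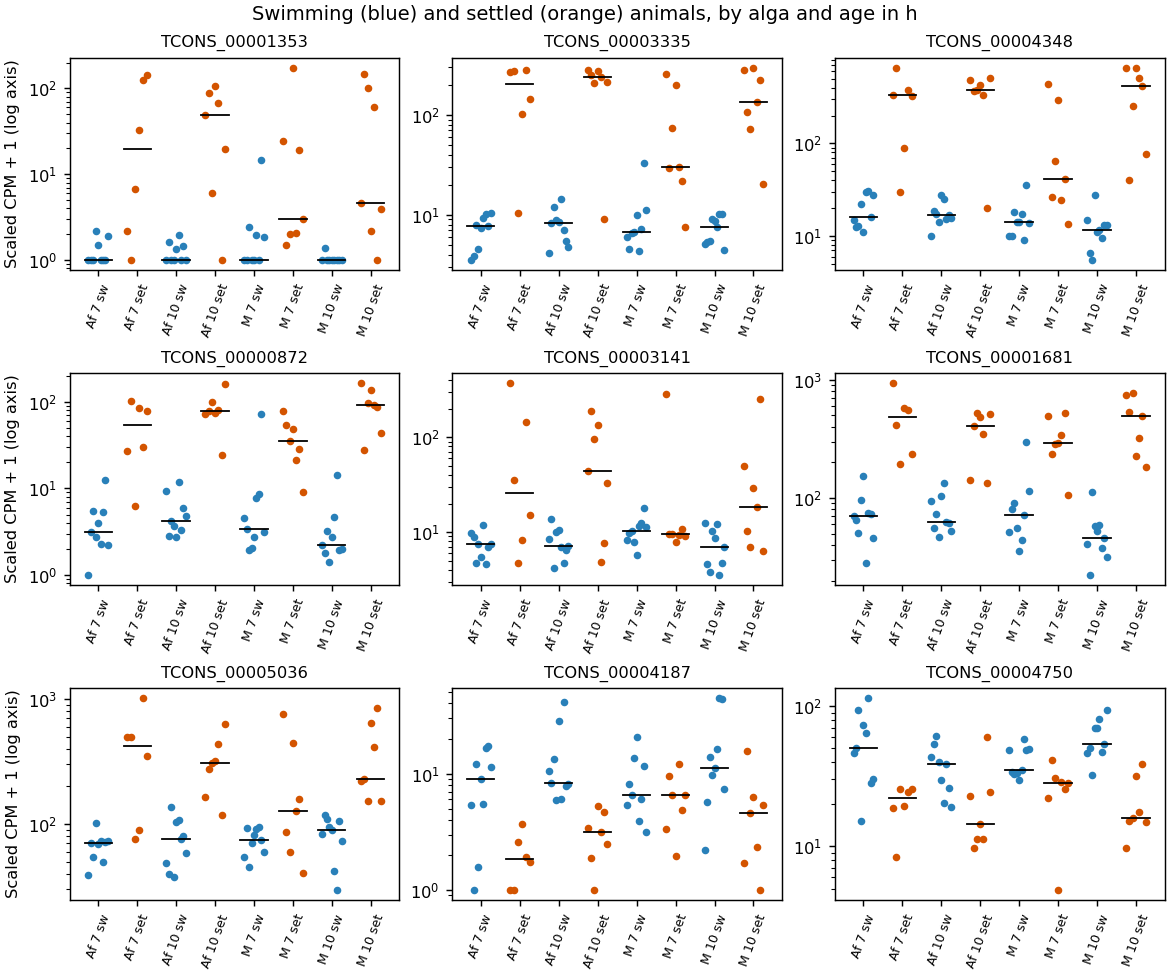
Each panel is 1 feature and each point 1 animal, with scaled CPM + 1 on a log axis and the black line at the group median, for swimming (sw, blue) and settled (set, orange) animals on A. fragilissima (Af) and Mesophyllum sp. (M) at 7 and 10 h. TCONS_00003335 and TCONS_00004348 are high in most settled animals and low in a few, and the 2 features of falling mean, TCONS_00004187 and TCONS_00004750, overlap more.

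Of the 28 falls, 13 had a mean CPM above the median of the 200. TCONS_00004187 fell from 11.3 ± 11 CPM (SD, n = 36, median 7.66) in swimming larvae to 3.29 ± 3.52 CPM (SD, n = 27, median 2.33) in settled animals, with a log2 change of -1.90 ± 0.32 (edgeR adjusted p = 3.13e-07). No settled animal lay above all larvae, but settled animals reached 14.7 CPM and larvae reached down to 0. On A. fragilissima at 7 h the settled mean was 0.995 CPM and the swimming mean 7.87 CPM, whereas on Mesophyllum sp. at 7 h they were 5.42 and 7.79 CPM. These means carry no batch term. On A. fragilissima at 7 h all settled and no swimming animals were in C, and TCONS_00004187 was among the features called for batch. The test of a different change on the algae called no member.

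TCONS_00004750 fell from 47.9 ± 22.5 (SD, n = 36) to 21.3 ± 11.8 CPM (SD, n = 27), by -1.13 ± 0.24 on the log2 scale (edgeR adjusted p = 6.00e-05). TCONS_00002014 fell from 10.5 ± 4.15 (SD, n = 36) to 4.58 ± 2.14 CPM (SD, n = 27), by -1.05 ± 0.19 (edgeR adjusted p = 1.78e-06), and TCONS_00003962 from 6.48 ± 2.65 to 2.84 ± 2.1 CPM, by -1.30 ± 0.23 (edgeR adjusted p = 9.93e-07). In TCONS_00002014, 16 of 27 settled animals lay below the lowest larva. TCONS_00002269 fell by -1.16 ± 0.24, from a median of 6.42 to 4.04 CPM. The 3 remaining named falls, TCONS_00005023, TCONS_00002142 and TCONS_00000414, had medians under 6 CPM in swimming larvae and edgeR adjusted p of 0.0288, 0.0476 and 0.0359. All 3 lost the call within batch C, and TCONS_00002142 also without replicate 6 of the settled animals on Mesophyllum sp. at 7 h (edgeR adjusted p = 0.0552).

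TCONS_00002643, chosen after its values were seen as the fall with the smallest adjusted p, was the most abundant member that fell. It had 79.4 to 166 CPM in swimming larvae (114 ± 18.7, SD, n = 36) and 22.6 to 133 CPM in settled animals (61.1 ± 27.5, SD, n = 27), a log2 change of -0.91 ± 0.11 (edgeR adjusted p = 9.40e-12). The lowest larva stood above 21 of the 27 settled animals.

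Settled animals differed widely in these rises. For each settled animal, the 46 rises were checked for values above the highest of the 36 swimming larvae, and the number ran from 0 to 35 with a median of 21. In 3 settled animals it was 0: replicate 6 on A. fragilissima at 10 h and replicates 4 and 10 on Mesophyllum sp. at 7 h. Replicate 3 of the last group had 35. Total counts of the 3 animals at 0 were 2394777, 2050352 and 1943138, beside 874227 to 2645808 over all 27 settled animals. Since the 46 were chosen by this contrast, the numbers describe the spread and test nothing. Without replicate 6 on A. fragilissima at 10 h, 80 of the 200 were called, 47 higher and 33 lower, beside 36% of all features tested, and all 74 were among them.

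The settlement change was not shown to depend on alga or age. The test of a different change on the algae called 0 of the 200 by edgeR, with 17 at an unadjusted p under 0.05, beside 0.0201% of all features called. That of a different change at 7 and 10 h called 0, with 26 at an unadjusted p under 0.05, beside 0.609% of all features. DESeq2 was not run on these interaction tests.

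Summed over the 200, plain CPM was higher in settled animals. In batch C it was 6196 ± 699 (SD, n = 25) in settled and 5509 ± 408 (SD, n = 23) in swimming animals, and swimming animals of K and T had 5468 ± 479 (SD, n = 48) and 5523 ± 529 (SD, n = 46). These sums weigh the few abundant members most, and the swimming ones in C include ages at which no animal settled. The choice of members by mean CPM over all animals can also favour features that are high in settled ones.

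Age was followed in larvae that had met no alga. From 0.5 to 3.5 h, 3 of the 200 rose and 2 fell, which is 2.5%, beside 6.03% of all features tested (3.2% higher and 2.84% lower) and 4.71% of the gene models of like level. The 0.5 h larvae had never been in a well, so the effects of age and of handling cannot be told apart here. Both age comparisons use the seawater larvae of 3.5 h.

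TCONS_00002529 was close to absent at 0.5 h. It had 0 to 2.36 CPM then, with a count in 6 of 9 larvae (0.769 ± 0.851, SD), and 2.19 to 23.7 CPM at 3.5 h (6.21 ± 6.96, SD, n = 9), a log2 change of 2.87 ± 0.59 (edgeR adjusted p = 0.000256). In 8 of the 9 older larvae it was above every 0.5 h larva. Later seawater means were 7.32, 4.83 and 4.12 CPM at 5, 7 and 10 h.

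TCONS_00000960 moved the other way. It had 8.10 to 22.0 CPM at 0.5 h (14.2 ± 4.92, SD, n = 9) and 3.10 to 8.46 CPM at 3.5 h (4.81 ± 1.70, SD, n = 9), with 8 of 9 older larvae below all younger ones (log2 -1.45 ± 0.39, edgeR adjusted p = 0.00890). It stayed at means of 5.62 to 6.53 CPM in seawater to 10 h. In settled animals it was higher, at 27.5 ± 12.4 CPM (SD, n = 27) beside 7.17 ± 6.66 CPM (SD, n = 36) in swimming larvae on the algae, a log2 change of 2.30 ± 0.25 (edgeR adjusted p = 1.36e-14).

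The other 3 calls were weaker. TCONS_00001886 had 14.5 to 181 CPM at 0.5 h (61.8 ± 49.1, SD, n = 9) and 2.16 to 31.7 CPM at 3.5 h (17.4 ± 10.9, SD, n = 9), a change of -1.86 ± 0.58 (edgeR adjusted p = 0.0350). TCONS_00002858 rose from 5.97 ± 2.21 to 13.2 ± 4.18 CPM (SD, n = 9 each), by 1.17 ± 0.35 (edgeR adjusted p = 0.0248), and TCONS_00001415 from 21.6 ± 10.9 to 39.4 ± 10.0 CPM, by 0.86 ± 0.28 (edgeR adjusted p = 0.0492). All 3 overlapped between the ages. Without the 0.5 h larva of 181 CPM, replicate 9, the change of TCONS_00001886 was -1.40 and its call was lost (edgeR adjusted p = 0.170), as was that of TCONS_00002858 (1.12, edgeR adjusted p = 0.0523). Without either replicate 7 or replicate 9 of the 3.5 h larvae, TCONS_00001415 was not called (0.85 and 0.75, edgeR adjusted p = 0.0721 and 0.120).

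From 3.5 to 10 h in seawater, 5 rose and 8 fell, which is 6.5%, beside 7.93% of all features tested (3.91% higher and 4.03% lower) and 5.57% of the gene models of like level. TCONS_00002106 gave the clearest fall. It had 54.3 to 140 CPM at 3.5 h (83.2 ± 31.9, SD, n = 9) and 7.58 to 25.3 CPM at 10 h (16.8 ± 6.61, SD, n = 9), with no overlap (log2 -2.33 ± 0.42, edgeR adjusted p = 3.39e-05). Its means at 0.5, 3.5, 5, 7 and 10 h were 121, 83.2, 68.1, 11.1 and 16.8 CPM, so that most of the drop lay between 5 and 7 h. Larvae given algae, which were not used in the age comparison, showed a like step, which was not tested. Their means at 5 and 7 h were 71.9 and 12.1 CPM on A. fragilissima and 54.4 and 14.3 CPM on Mesophyllum sp.

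TCONS_00000957 took a like course at a lower level. It had 2.82 to 15.1 CPM at 3.5 h (7.73 ± 3.89, SD, n = 9) and 0.368 to 3.35 CPM at 10 h (1.41 ± 1.02, SD, n = 9), a log2 change of -2.38 ± 0.53 (edgeR adjusted p = 0.00113). At 5 and 7 h its seawater means were 5.10 and 0.838 CPM. TCONS_00003427 fell from 13.6 ± 9.88 to 2.74 ± 3.03 CPM (SD, n = 9 each), by -2.39 ± 0.72 (edgeR adjusted p = 0.0227). Its larvae varied more, and 1 larva of 5 h stood at 99.9 CPM beside a group median of 6.58 CPM.

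TCONS_00000913 gave the clearest rise. It had 40.3 to 80.6 CPM at 3.5 h (57.3 ± 17, SD, n = 9) and 82.0 to 135 CPM at 10 h (110 ± 17.2, SD, n = 9), with no overlap (log2 0.92 ± 0.14, edgeR adjusted p = 7.00e-07). Means at 5 and 7 h were 66.8 and 92.5 CPM. Group means of larvae given algae, which this comparison did not use, ran from 43 to 118 CPM on A. fragilissima and from 44.8 to 114 CPM on Mesophyllum sp. between 3.5 and 10 h. It was higher again in settled animals, by 0.22 ± 0.09 on the log2 scale (edgeR adjusted p = 0.0328).

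TCONS_00002020 rose with age from 36 ± 6.66 to 61.8 ± 14.2 CPM (SD, n = 9 each), by 0.78 ± 0.19 (edgeR adjusted p = 0.00377), and TCONS_00004290 from 44.7 ± 17 to 81.3 ± 20.9 CPM, by 0.86 ± 0.22 (edgeR adjusted p = 0.00499). At settlement these parted: TCONS_00002020 was lower in settled animals, by -0.51 ± 0.12 (edgeR adjusted p = 0.000356), and TCONS_00004290 was higher, by 1.06 ± 0.13 (edgeR adjusted p = 1.48e-11). Of the most abundant members, TCONS_00001787 rose from 555 ± 100 to 949 ± 361 CPM (log2 0.77 ± 0.25, edgeR adjusted p = 0.0395). TCONS_00003272 fell from 628 ± 120 to 418 ± 88.7 CPM (-0.58 ± 0.14, edgeR adjusted p = 0.00220), and TCONS_00004304 from 209 ± 27.6 to 140 ± 23.1 CPM (-0.60 ± 0.19, edgeR adjusted p = 0.0333). At 0.5 h TCONS_00001787 averaged 874 ± 481 CPM (SD, n = 9), and its difference from 0.5 to 3.5 h was not called (log2 -0.64 ± 0.25, edgeR adjusted p = 0.130).

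**Figure D5:**
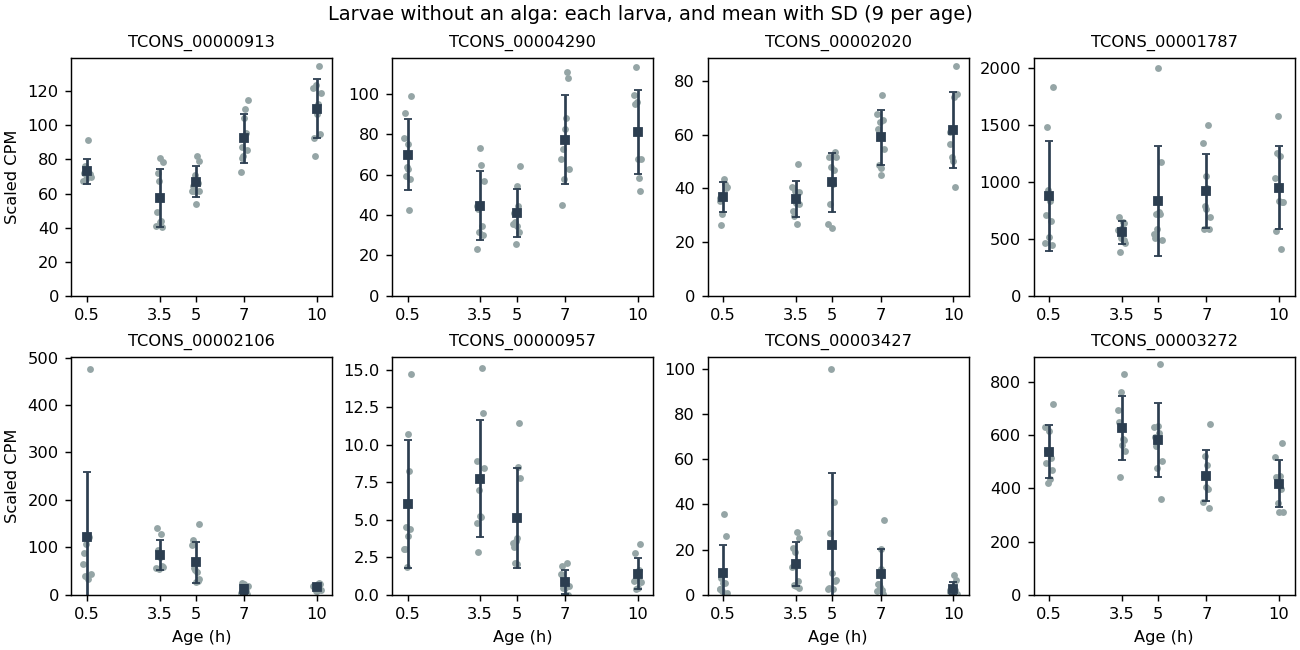
Each panel is 1 feature in larvae of 0.5 h and in seawater larvae of 3.5 to 10 h, with scaled CPM against age in h. Grey points are single larvae, squares are means and bars SDs (9 larvae per age), cut off at 0. Between 5 and 7 h the mean of TCONS_00002106 drops from 68.1 to 11.1 CPM, and between 3.5 and 10 h that of TCONS_00000913 climbs from 57.3 to 110 CPM.

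The remaining age calls rest on few larvae. TCONS_00000881 had no count in the 9 larvae of 10 h and 0 to 46 CPM at 3.5 h, with a count in 6 of 9 larvae (6.57 ± 14.8, SD). Taking 3 counts over the group of 10 h as the floor, 0.127 CPM, it was at least 51.9-fold lower at 10 h. A single larva held the value of 46 CPM, and the next had 3.40 CPM. Without that larva the mean at 3.5 h was 1.65 CPM and the bound 13-fold. TCONS_00002292 fell from a median of 1.88 to 0.458 CPM (log2 -3.50 ± 1.13, edgeR adjusted p = 0.0348). TCONS_00005055 and TCONS_00005023, counted in under 50% of the larvae on the side where they were higher, were called as well, the first as a fall and the second as a rise, with 1 and 4 larvae counted at 10 h and 4 and 3 at 3.5 h. Of TCONS_00005023, 1 larva of 10 h held 192 CPM, beside a group median of 0 (23.2 ± 63.5, SD, n = 9). Its highest plain CPM over all animals, 196, also weighs on the mean of 4.77 CPM by which it was chosen. Without replicate 7 of the 3.5 h larvae, which held the 46 CPM, the fitted change of TCONS_00000881 was not called (edgeR adjusted p = 0.105). Without replicate 9, TCONS_00001787, TCONS_00002292 and TCONS_00004304 were not called (edgeR adjusted p = 0.0714, 0.0672 and 0.0646).

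Batches T and K could each be fitted for age, with 4 or 5 larvae a side. From 0.5 to 3.5 h the fits called 0 and 1 of the 200, beside 0.809% and 1.29% of all features. From 3.5 to 10 h they called 1 and 0, beside 1.12% and 0.294%. The 1 call in T was TCONS_00002106. The named age members kept their direction in both batches.

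The cue was tested among larvae that were still swimming. Against seawater, over the 4 ages with 36 larvae a side, 9 of the 200 were higher and 2 lower with A. fragilissima. This is 5.5%, beside 5.5% of all features tested and 4.37% of the gene models of like level, so the share is at the background. Higher calls were 4.5% of the 200 and 2.32% of all features, and lower calls 1% and 3.18%.

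TCONS_00004348, which rose 4.02 on the log2 scale at settlement, was also higher in larvae still swimming with A. fragilissima. Seawater larvae had 3.75 to 31.7 CPM with a median of 9.81 (11.9 ± 6.40, SD, n = 36), and larvae with A. fragilissima had 8.99 to 44.5 CPM with a median of 21.8 (21.6 ± 8.37, SD, n = 36). The groups overlapped, and the log2 difference was 0.87 ± 0.21 (edgeR adjusted p = 0.00294). At 3.5, 5, 7 and 10 h the means were 25.6, 25.1, 18.8 and 16.9 CPM with A. fragilissima. Seawater means were 16.4, 12.5, 8.80 and 9.83 CPM, and means with Mesophyllum sp. were 14.6, 13.9, 14.8 and 11.5 CPM. The settlement comparison shares the A. fragilissima larvae of 7 and 10 h with this one, in the opposite role. By batch, the difference was 1.26 in K, where it was called, and 0.45 in T, where it was not.

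TCONS_00001282 had the largest difference among features counted in at least 50% of the larvae. Its medians were 2.06 CPM in seawater (2.79 ± 2.70, SD, n = 36) and 5.59 CPM with A. fragilissima (7.91 ± 8.10, SD, n = 36), a log2 difference of 1.53 ± 0.30 (edgeR adjusted p = 0.000118). Its means went with age from 4.83 to 1.42 CPM in seawater and from 15.5 to 3.45 CPM with the alga. The seawater difference from 3.5 to 10 h was not called, and age was not tested in larvae with the alga. TCONS_00000964 was at 3.27 ± 2.47 and 7.03 ± 3.47 CPM (SD, n = 36 each), a difference of 1.07 ± 0.24 (edgeR adjusted p = 0.00149), with 15 of 36 larvae above all seawater larvae. TCONS_00000491 differed by 1.35 ± 0.37 (edgeR adjusted p = 0.0121), and 1 larva with the alga had 214 CPM beside a group median of 7.11 CPM.

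The other calls with A. fragilissima include the highest and the third highest member by level. TCONS_00004304 was at 165 ± 38.3 CPM in seawater and 203 ± 42.8 CPM with A. fragilissima (SD, n = 36 each), a log2 difference of 0.36 ± 0.10 (edgeR adjusted p = 0.0110), and both T and K alone called it, with 0.36 and 0.35. TCONS_00001787 was lower with the alga, at 614 ± 254 beside 813 ± 367 CPM (-0.44 ± 0.13, edgeR adjusted p = 0.0242). Without replicate 6 of the seawater larvae of 5 h, which had 2002 CPM, that difference was -0.37 and was not called (edgeR adjusted p = 0.0602). TCONS_00002518, TCONS_00005033 and TCONS_00004086 were higher by 0.73 ± 0.18, 0.63 ± 0.18 and 0.57 ± 0.14, and TCONS_00002269 lower by -0.66 ± 0.19. TCONS_00000986, counted in 17 of 36 larvae with the alga and 10 of 36 in seawater, was called at an edgeR adjusted p of 0.0498. Batch K alone called 16 of the 200 and T alone 1, beside 5.42% and 1.37% of all features tested.

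With Mesophyllum sp., 2 of the 200 were higher than in seawater and none lower, which is 1%, beside 0.214% of all features tested (0.174% higher and 0.0401% lower). TCONS_00004086 averaged 16.7 ± 6.52 CPM with Mesophyllum sp. and 11.8 ± 5.18 CPM in seawater (SD, 36 larvae a side), which differed by 0.64 ± 0.15 on the log2 scale (edgeR adjusted p = 0.0344). TCONS_00003103 averaged 5.51 ± 2.87 CPM with Mesophyllum sp. and 3.90 ± 1.81 CPM in seawater, a difference of 0.81 ± 0.20 (edgeR adjusted p = 0.0491). Both calls were lost without the batch term, and neither T nor K alone called either of them. Without replicate 6 of the seawater larvae of 5 h, TCONS_00003103 was not called (edgeR adjusted p = 0.0537). The 2 comparisons with seawater share the seawater larvae.

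Between the algae no member was called by edgeR, with 16 at an unadjusted p under 0.05, and DESeq2 called 1. Of all features tested, 0.816% were called. TCONS_00004348, called against seawater with 1 alga and not with the other, did not pass the test between them, so a difference between the algae is not shown for it.

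Library batch moved a like share of the members and of other features. With both batch terms tested together, 51 of the 200 were called, which is 25.5%, beside 25.1% of all features and 23.9% of the gene models of like level. Of the 51, 20 were also among the 74 called at settlement and 7 among the 11 called with A. fragilissima. The same overlaps over all features are not given, so neither is read as a trait of the members. The 3 with the smallest p, chosen by it, were TCONS_00001988, TCONS_00004699 and TCONS_00003567. In swimming animals TCONS_00001988 averaged 39 ± 8.43 CPM in T (SD, n = 46), 29.8 ± 8.35 in K (n = 48) and 22.6 ± 4.97 in C (n = 23). TCONS_00004699 averaged 5.47, 13.4 and 4.45 CPM, and TCONS_00003567 154, 164 and 216 CPM.

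TCONS_00001988 shows what the batch term does to a settlement call. Its means were 31.4 ± 9.70 CPM in settled (SD, n = 27) and 32 ± 10.0 CPM in swimming animals (SD, n = 36), yet its fitted log2 change was 0.35 ± 0.10 (edgeR adjusted p = 0.00349). Of the 27 settled animals 25 were in C, the batch in which swimming animals had the least of it. Its raw means and its fitted change differ in direction, so this call depends on the batch term.

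After group and batch means were removed, each member was compared with every tested Aqu2.1 feature by Pearson's r of log2 CPM over the 144 animals. These r values are the highest of many, share libraries and depth, and are given as descriptions. The best partner had a median r of 0.46, with a range of 0.33 to 0.98, and in 79 members it reached 0.5. In 12 it reached 0.8. Between the members themselves, the median r over 19900 pairs was 0.00.

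The closest match was that of TCONS_00000268 with Aqu2.1.42421_001, at r = 0.98 and Spearman's rho = 0.97. Both had counts in 90 animals and neither in 41, while 9 animals had the TCONS feature alone and 4 the gene model alone, so presence and absence went together in most animals. TCONS_00003119 and Aqu2.1.35526_001 followed at r = 0.94, TCONS_00000029 and Aqu2.1.13083_001 at 0.94, and TCONS_00002130 and Aqu2.1.28759_001 at 0.93. Without the 2 animals farthest from the median, r in the 4 pairs was 0.92 to 0.98. These pairs were picked for their r, and where either feature lies in the genome is not given in the sources used here.

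For the 3 members with the largest settlement changes among those counted in at least 50% of settled animals, the best partners also rose at settlement, as did 16.9% of all features tested. Removing group and batch means leaves the wide scatter among settled animals in r. The rise of the partners is therefore not independent of how they were picked, and is a description only. TCONS_00003335 was most like Aqu2.1.36606_001 (r = 0.84, rho = 0.59, and r = 0.77 without 2 animals) and then Aqu2.1.27488_001 (r = 0.79), which rose by 4.02 and 4.68 on the log2 scale. TCONS_00004348 was most like Aqu2.1.33469_001 (r = 0.83) and Aqu2.1.37108_001 (r = 0.80), which rose by 2.37 and 2.01. TCONS_00004304 had the same best partner, Aqu2.1.33469_001, at r = 0.85. TCONS_00001353 had weaker ones, Aqu2.1.27542_001 at r = 0.55 and Aqu2.1.27027_001 at r = 0.51. In all 6 of these pairs of the 3 members rho was below r, down to 0.22 for TCONS_00001353 with Aqu2.1.27542_001.

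Of the 200, 8 pairs had adjacent numbers. TCONS_00002703 and TCONS_00002704 went together most, at r = 0.63 (rho = 0.61), and rose at settlement by 0.62 and 1.13 on the log2 scale. TCONS_00000765 and TCONS_00000766 had r = 0.33, and TCONS_00001352 and TCONS_00001353 had 0.21. The other 5 pairs lay between -0.21 and 0.02. Adjacent numbers alone therefore did not go with a shared pattern over animals in most pairs.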

How the data were processed

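Per the labels' series text, RNA of single larvae and post-larvae was made into poly(A) libraries by CEL-Seq2, sequenced, split by barcode, run through the public CEL-Seq pipeline and mapped to the Aqu2.1 models. Which aligner and build were used is not given in the sources used here. The authors deposited raw counts of 47411 features in 144 animals as 1 table. The highest count, 8192, equals 2 lanes of 4096 identifiers of 6 bases, so very high counts may be compressed. Features were not stated to be separate from overlapping or near-identical transcripts, so reads of a TCONS feature and of a gene model that share sequence could be split between them.

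Tests used edgeR 4.0.16 in R 4.3.3, with its robust quasi-likelihood fit and F test, 2-sided, with factors by the trimmed mean of M-values (0.644 to 1.20), the low-count filter by group (14950 features kept, 99.4% of counts), a mean for each of 17 groups, a term for batch T, K or C, and all 144 animals in 1 fit. Calls used a Benjamini-Hochberg adjusted p below 0.05 over all features tested. Standard errors are the log2 change over the square root of F. The code was tested on simulated counts. Where a group had no count, 3 counts over the group were taken as the floor, which covers counting error only. Python 3.11.15 was used for descriptions.

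Named members were the 10 of highest mean CPM, up to 8 called in each direction per comparison by size of change among those counted in at least 50% of the animals of the higher side, the 5 with most animals without a count, the 5 of smallest and 3 of largest coefficient of variation, those next to rank 200, and adjacent numbers. Others are said to be chosen after their values were seen, or were called by these data in a sparse group. The members and lists were chosen with earlier results of these data known. Alternatives were DESeq2 1.42.0, its size factors, no filter, no batch term, depth as a covariate, a replicate block, counts corrected for identifier collisions, the compared groups alone, single batches, and members ranked by median CPM. Fits without single animals that stood apart were added after the values were seen.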

Additional observations from a re-analysis of the deposited data

Results flagged for a closer look

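Of 65 sets of values of 1 group that were looked at (the summed CPM in each group, and named members in the age and settled groups), 7 held an animal farther from the rest than Dixon's 95% critical value allows. Chance gives about 1 in 20 for independent sets of normally distributed values. The sets here share animals, and more than 1 flag falls on the same animal, so the 7 of 65 is not compared with that rate.

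Replicate 6 of the seawater larvae of 5 h had a summed plain CPM of 6935 over the 200 features, the next larva 5495 and the group median 5309. Of TCONS_00001787 alone it had 2002 scaled CPM. Without it, Amphiroa fragilissima against seawater gave 10 calls in place of 11, and Mesophyllum sp. against seawater gave 1 in place of 2.

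TCONS_00002529 was at 23.7 CPM in replicate 9 of the seawater larvae of 3.5 h, beside 10.1 CPM in the next larva and a median of 3.48 CPM. Without that larva its rise from 0.5 h was 2.40 on the log2 scale and kept its call (edgeR adjusted p = 0.00409). TCONS_00001886 was at 181 CPM in replicate 9 of the 0.5 h larvae, beside 81.4 CPM and a median of 44.2 CPM. TCONS_00000881 was at 46 CPM in replicate 7 of the seawater larvae of 3.5 h, beside 3.40 CPM and a median of 2.69 CPM. The calls of the last 2 were lost without these larvae.

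TCONS_00001353 was at 173 CPM in replicate 6 of the settled animals on Mesophyllum sp. at 7 h, beside 23.3 CPM and a median of 2.02 CPM. Without that animal its settlement rise was 6.07 on the log2 scale and still called (edgeR adjusted p = 1.51e-15).

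Replicate 6 of the settled animals on A. fragilissima at 10 h stood apart on the low side in 2 members. It had 8.16 CPM of TCONS_00003335, where the next animal had 210 and the median was 238 CPM, and 19.3 CPM of TCONS_00004348, where the next had 330 and the median was 379 CPM. Both values lie within the range of swimming larvae on the algae.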

How the results depend on the processing

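Counts of called members that moved by more than 1.5 times were these, first for the age change from 0.5 to 3.5 h, with 5 calls. They were 2 without the low-count filter, 8 with the compared groups alone, 3 without replicate 9 of the 0.5 h larvae, 0 within batch T and 1 within K. From 3.5 to 10 h, with 13, T gave 1 and K gave 0. For A. fragilissima against seawater, with 11, T gave 1. For Mesophyllum sp. against seawater, with 2, there were 0 without the filter, without the batch term, with a replicate block and within T, 1 within K, 6 with DESeq2 and 1 without replicate 6 of the seawater larvae of 5 h. Between the algae, with 0, there were 3 without the batch term, 1 with depth as a covariate, 3 with the compared groups alone and 1 with DESeq2. At settlement, with 74, the replicate block gave 44 (43 of them among the 74), T gave 0 and C gave 43. Apart from the single-batch shares given above, shares of all features under these alternatives are not given. The changes in these counts are therefore not read as a trait of the members. The single batches hold fewer animals. For the other losses the cause was not tested.

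The replicate numbers did not pair animals: deviations of same-numbered animals had correlations of -0.203 to 0.375 with a median of -0.01 over 868 pairs, and 17 of 144 animals were most like an animal of their own number. Of 44 named changes none turned sign in 521 pairings of a change with an alternative fit, which reuse the same animals. In 400 the call was kept and in 121 lost, 42 of these within T and 22 within K, and 26 changes kept their call in all refits that used all batches. With the single batches counted as well, 0 of the 44 kept their call in every refit. Batch C could not be fitted for age or for either alga against seawater, and K could not be fitted for settlement. The interaction tests and the batch test were refitted only with DESeq2 size factors and without the filter, which gave 0, 0 and, for batch, 52 and 47. Of the members, 100 averaged under 10 CPM, a few counts in a shallow library, which limits what could be detected in them.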
